A study of Homo sapiens with 6 samples.

Results

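The 36 genes described here encode enzymes, regulators and carriers of cholesterol and fatty acid synthesis, a group that includes known targets of the sterol regulatory element-binding proteins (SREBPs). They were taken by name from a table of 58302 gene entries, and all 36 matched a symbol. By role, 7 act in the mevalonate steps, 12 in the steps from squalene to cholesterol, 5 in the SREBP regulatory system, 3 in sterol transport and 9 in fatty acid synthesis. They are not the whole of either pathway. All 36 passed the filter on low counts, in which 15063 genes were tested. The smallest count of any of them in any library was 77.

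Gene expression was measured by RNA sequencing in Ker-CT cells, an established immortalised human keratinocyte line. In 3 libraries the cells had received siRNA against KMT2C, a histone H3 lysine 4 methyltransferase (siKMT2C), and in the other 3 a negative-control siRNA (siNC). Both groups had been exposed for 24 h to the M5 mixture, with interleukin-17A, interleukin-22, oncostatin M, interleukin-1α and tumour necrosis factor α at 10 ng/ml each. All 6 libraries therefore come from a single line in the cytokine-stimulated state, and no unstimulated group was analysed here. The labels do not say that the 3 libraries of a group came from separate cultures, so the p-values measure the spread between these libraries, which may be technical. The libraries held 14409277 to 17539519 counts. KMT2C itself was at 31.99, 30.77 and 27.27 CPM (counts scaled to library size) in siKMT2C and at 87.88, 82.02 and 72.64 CPM in siNC. It fell by 1.43 on the log2 scale (SE 0.14, edgeR adjusted p = 0.00786). The KMT2C call was lost without siKMT2C replicate 1 (edgeR adjusted p = 0.0634), siKMT2C replicate 2 (0.0507) or siNC replicate 2 (0.0593). Among the controls siNC replicate 3 stood apart: the chi-square per degree of freedom over genes was 82.7 and 56.6 against the other 2 and 19.4 between those. In siKMT2C it was 26.8 between replicates 1 and 2, 25.5 between 1 and 3 and 47 between 2 and 3. Leaving out siNC replicate 3 raised the number of genes called from 226 (1.5% of those tested) to 620 (4.04%). The 8 basal and activated keratinocyte markers summed to 12600 to 17800 CPM in siKMT2C and 14000 to 20500 CPM in siNC. TP63 (means 115.8 and 186.2 CPM) and ITGA6 (867.6 and 1232 CPM) were lower in every siKMT2C library, as 12.3% of all genes were. The other genes of that list overlapped. Differentiated keratinocyte markers summed to 32.9 to 37.7 CPM in siKMT2C and 31.8 to 49.4 CPM in siNC, and melanocyte markers to 2.03 to 3.06 CPM and 2.31 to 3.38 CPM. The sebocyte and adipocyte markers, from cells that make much lipid, summed to 0.642 to 1.47 CPM and 0.676 to 1.09 CPM, with MC5R, AWAT1 and AWAT2 at 0 in every library. Fibroblast markers summed to 12.4 to 16.3 CPM in siKMT2C and 20.1 to 29.6 CPM in siNC, and leukocyte and endothelial markers to 0.183 to 0.321 CPM and 0.973 to 1.13 CPM. Of the latter list only CD14 was tested, and PTPRC, CD3E, PECAM1 and CDH5 were at 0 in every library. The part of these marker differences in the results below was not tested.

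Cholesterol and fatty acids are both built from acetyl-CoA. In the sterol pathway acetyl-CoA units are condensed to mevalonate, mevalonate is turned into isoprenoid diphosphates, these are joined to squalene, and squalene is cyclised and trimmed to cholesterol. The pathway is controlled by SREBP transcription factors, which lie dormant in the membrane of the endoplasmic reticulum bound to the escort protein SCAP. When sterols are plentiful INSIG proteins hold SCAP there, and when sterols fall the complex travels to the Golgi, where SREBP is cut and released to the nucleus. SREBF2 encodes the form that mainly drives sterol genes, and SREBF1 the forms that mainly drive fatty acid genes. SREBPs bind sterol elements in promoters together with the partner factors NF-Y, which binds CCAAT boxes, and Sp1, which binds GC boxes. In epidermis, cholesterol and fatty acids made by keratinocytes go into the lipid layers of the skin barrier.

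Promoter sequence was examined in RefSeq windows on GRCh38.p14 that cover the 250 bases before each gene's most upstream RefSeq start. Windows were found for 32 of the 36 genes. SQLE, ACAT2, FDFT1 and FASN were not analysed here for promoter sequence. The stretches below are those of the sterol and fatty acid genes with the smallest p-values among the genes that had one, FDPS and HMGCS1 for sterol synthesis and ACACA for fatty acid synthesis, and those of both genes with a sterol element match, ACSS2 and SREBF2. Each runs 5′ to 3′ on the gene's own strand, in lower case. Capitals mark CCAAT or its reverse complement ATTGG, and in ACSS2 and SREBF2 also the sterol element match. The windows are chr1:155308616-155308865 (plus strand) for FDPS, chr5:43313413-43313662 (minus strand) for HMGCS1, chr17:37406837-37407086 (minus strand) for ACACA, chr20:34874739-34874988 (plus strand) for ACSS2 and chr22:41832855-41833104 (plus strand) for SREBF2. In GENCODE 29, transcripts of FDPS, HMGCS1 and SREBF2 start inside these windows, the ACACA window lies upstream of the gene, and the ACSS2 window lies inside the gene, downstream of its outermost start.
FDPS: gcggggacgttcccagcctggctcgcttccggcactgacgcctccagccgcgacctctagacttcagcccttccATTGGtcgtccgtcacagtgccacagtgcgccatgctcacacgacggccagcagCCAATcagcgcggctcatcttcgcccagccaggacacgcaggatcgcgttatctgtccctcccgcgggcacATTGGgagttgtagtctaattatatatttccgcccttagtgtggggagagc
HMGCS1: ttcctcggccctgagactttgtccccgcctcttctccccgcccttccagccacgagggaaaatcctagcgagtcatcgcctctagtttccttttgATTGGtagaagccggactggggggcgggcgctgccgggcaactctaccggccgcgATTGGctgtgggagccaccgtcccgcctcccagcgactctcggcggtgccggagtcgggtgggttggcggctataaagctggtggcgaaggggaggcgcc
ACACA: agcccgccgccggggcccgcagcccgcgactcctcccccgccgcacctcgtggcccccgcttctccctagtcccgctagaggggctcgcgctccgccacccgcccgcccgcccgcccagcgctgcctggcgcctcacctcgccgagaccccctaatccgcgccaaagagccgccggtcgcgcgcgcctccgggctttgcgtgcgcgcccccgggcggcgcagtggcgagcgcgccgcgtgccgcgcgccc
ACSS2: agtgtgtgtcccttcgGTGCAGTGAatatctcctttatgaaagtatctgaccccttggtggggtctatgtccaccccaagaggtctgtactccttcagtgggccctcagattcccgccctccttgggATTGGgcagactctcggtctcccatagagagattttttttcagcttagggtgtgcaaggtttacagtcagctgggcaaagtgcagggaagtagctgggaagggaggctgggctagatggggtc
SREBF2: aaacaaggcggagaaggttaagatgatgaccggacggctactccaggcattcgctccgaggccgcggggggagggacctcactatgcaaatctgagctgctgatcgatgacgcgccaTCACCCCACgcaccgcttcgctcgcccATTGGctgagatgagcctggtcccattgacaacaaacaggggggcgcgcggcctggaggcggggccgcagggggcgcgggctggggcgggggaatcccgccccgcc

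CCAAT boxes were common in the windows of the sterol genes. CCAAT, searched on both strands, was found in 11 of the 16 sterol synthesis genes with a window (68.8%), in 4 of 8 fatty acid genes (50%) and in 33.0% of the 27305 promoters, counted as 1 per gene. At least 2 copies were found in 7 sterol synthesis genes (43.8%), in 2 fatty acid genes (25%) and in 10.0% of all promoters. MVK and NSDHL each held 5 copies, MSMO1 held 4, and FDPS, MVD and EBP held 3. Counted from the RefSeq start, the FDPS copies begin at -176, -122 and -51 and those of HMGCS1 at -155 and -100, as the capitals above show, while the ACACA window held none. GGGCGG, the GC box, was found in 13 sterol synthesis genes (81.2%), 7 fatty acid genes (87.5%) and 42.2% of all promoters. The 27305 promoters were not limited to genes expressed in these cells, whereas every gene of the lists passed the filter on low counts. The part of this in the higher shares of CCAAT and GGGCGG was not tested. ACACA held 5 matches to GGGCGG, of which the 4 most distant overlap one another. CACGTG, the E-box, was in INSIG1, SC5D and SCAP, 9.38% of the 32 genes against 6.46% of all promoters. The sterol element TCACNCCAC was in 1 gene, SREBF2, at -133, and in 0.868% of all promoters. The looser TCACNNCAC, which contains the stricter form, was also in ACSS2, at -234 on the opposite strand, and in 2.8% of all promoters. A match is a run of letters and not a bound site, and a window without a match says only that those letters are not in it. Over the 32 genes, the median log2 fold change between siKMT2C and siNC was 0.15 in the 11 with 2 or more CCAAT copies, 0.05 in the 8 with 1 and 0.06 in the 13 with none, and the ranges overlapped (-0.01 to 0.87, -0.38 to 1.03 and -0.24 to 0.45).

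**Figure D1:**
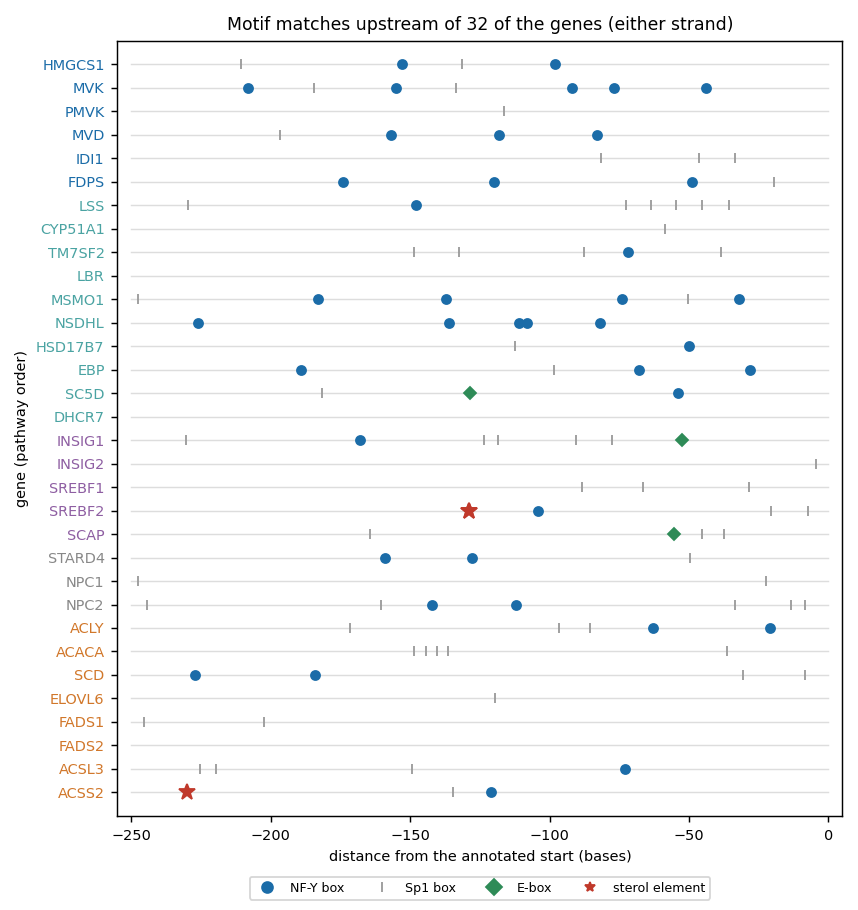
Motif matches in the 250 bases before the start of 32 genes (horizontal axis, bases; 1 row per gene in pathway order, label colours as in the plot of fold changes), with circles for CCAAT, bars for GGGCGG, diamonds for CACGTG and stars for the sterol element forms on either strand. MVK and NSDHL carry 5 CCAAT matches each, and the only stars are in SREBF2 and ACSS2.

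None of the 36 genes passed the test between siKMT2C and siNC, and FDPS, FDFT1 and HMGCS1 came nearest to it. By edgeR's quasi-likelihood test with Benjamini-Hochberg adjustment over all genes, 0 of 36 were called at an adjusted p under 0.05, against 1.5% of the 15063 tested. At an unadjusted p under 0.05, 6 of the 36 were higher in siKMT2C (HMGCS1, IDI1, FDPS, FDFT1, SC5D and INSIG1), where 7.91% of all genes were, and 0 were lower, where 9.01% of all genes were. All 3 siKMT2C libraries lay above all 3 siNC libraries for 6 genes (ACAT2, HMGCS1, FDPS, FDFT1, SQLE and SCD), against 11.8% of all genes. They lay below for 1 gene, NPC1, against 12.3% of all genes. The fitted log2 fold change was positive for 26 of the 36 and negative for 10, with a median of 0.12. Over all genes 49.69% were positive and the median was -0.0025. The count called depended on the method: it was 4 with DESeq2 (FDFT1, FDPS, HMGCS1 and INSIG1), which called 5.74% of all genes, and 5 with a replicate block (the same 4 and SC5D), which called 6.43%. It was 4 (FASN, FDFT1, FDPS and HMGCS1) after a correction for transcript GC content and length, where 8.9% of all genes were called, so that this count is near the background share. With the correction and the block it was 10, against 8.91% of all genes. The block matches libraries by replicate number, and the labels do not state that these are pairs. Every gene called under those settings was higher in siKMT2C. In bulk RNA, a smaller number of cells that express a gene and less RNA per cell cannot be told apart.

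**Figure D2:**
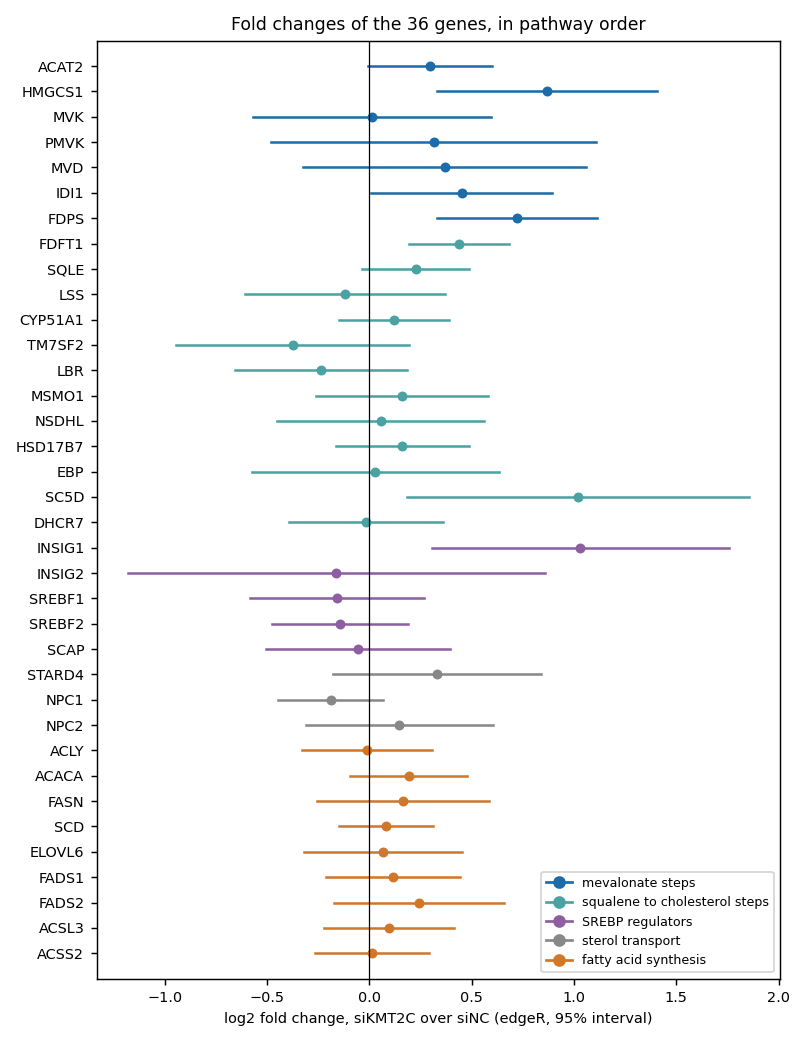
Fitted log2 fold change of siKMT2C over siNC (horizontal axis) with its 95% interval for each of the 36 genes in pathway order, coloured by role. The intervals of HMGCS1, IDI1, FDPS, FDFT1, SC5D and INSIG1 lie above 0, none lies below 0, and the fatty acid genes sit between -0.01 and 0.24.

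In the mevalonate steps, all 7 genes had a positive fold change, with a median log2 value of 0.37 and a range of 0.01 to 0.87. FDPS (ENSG00000160752, chr1:155308748-155320666, GENCODE 29 on GRCh38), which makes farnesyl diphosphate, the branch point to squalene and to protein prenylation, had the smallest p of the 36. FDPS was at 221.5, 195.2 and 267.5 CPM in siKMT2C and at 119.7, 133.5 and 161.8 CPM in siNC. Every siKMT2C library was above every siNC library, and the third replicate was the highest in both groups. The FDPS level was 1.65 times that of siNC (95% interval 1.26 to 2.16), a log2 fold change of 0.72 (SE 0.17, edgeR adjusted p = 0.0825). Without siNC replicate 3 the FDPS difference passed the test (log2 fold change 0.84, edgeR adjusted p = 0.0333). Reads of its 8 pseudogenes, which could be split from FDPS in counting, came to 0.371 CPM in siKMT2C and 0.364 CPM in siNC.

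HMGCS1 (ENSG00000112972, chr5:43289395-43313512) makes HMG-CoA, the direct precursor of mevalonate. HMGCS1 was at 859.5, 941.8 and 631.3 CPM in siKMT2C and at 520.6, 505.5 and 307.5 CPM in siNC. The groups did not overlap, and the third replicate was the lowest in both, the reverse of FDPS. The ratio was 1.82 (95% interval 1.26 to 2.65), a log2 fold change of 0.87 (SE 0.23, edgeR adjusted p = 0.116). IDI1 (ENSG00000067064, chr10:1039152-1049170), the isomerase that interconverts both isoprenoid building blocks, was at 332.5, 406.5 and 289.1 CPM in siKMT2C and 292.1, 266.7 and 193.2 CPM in siNC. The siKMT2C value of replicate 3 was just under siNC replicate 1, so the IDI1 groups overlapped. Its log2 fold change was 0.45 (SE 0.19, 95% interval 0.01 to 0.89, edgeR adjusted p = 0.286).

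ACAT2, which joins acetyl-CoA units at the entry to the pathway, was at 213.9, 221.3 and 256.0 CPM in siKMT2C and 207.4, 172.6 and 182.7 CPM in siNC. The groups did not overlap, with a log2 fold change of 0.30 (SE 0.13, edgeR adjusted p = 0.303). ACAT2 shares its locus tail to tail with TCP1 on the opposite strand, which was at 201.4 and 178.5 CPM. Entries for SOD2 and SOD2-OT1 also overlap ACAT2 on the opposite strand, and their levels are not given here. Without stated strand the reads of ACAT2 and of these genes cannot be told apart where they overlap. The kinases and the decarboxylase between mevalonate and isopentenyl diphosphate had wide intervals. MVD gave 0.37 (95% interval -0.32 to 1.06), PMVK 0.31 (-0.48 to 1.11) and MVK 0.01 (-0.57 to 0.59) in log2 units. In all 3 the groups overlapped and the third replicate was the highest of each group. The sign of PMVK and of MVK turned when some libraries were left out, with values down to -0.02 and -0.17, and MVD ranged from 0.15 to 0.75.

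**Figure D3:**
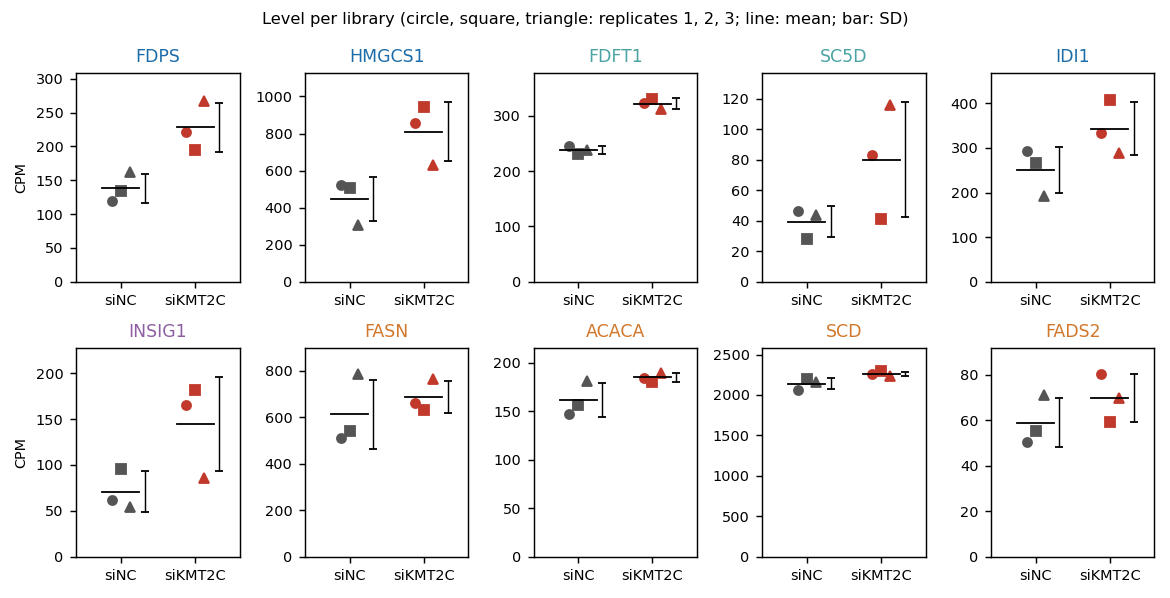
Level in CPM (vertical axis, from 0) of 10 of the genes in siNC (grey) and siKMT2C (red), with circles, squares and triangles for replicates 1, 2 and 3, lines for means and bars for the SD. FDPS, HMGCS1, FDFT1 and SCD do not overlap between groups, and INSIG1 and SC5D overlap although their mean levels differ 2.04-fold and 2.03-fold.

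In the steps from squalene to cholesterol, 8 of 12 genes had a positive and 4 a negative fold change, with a median log2 value of 0.09. FDFT1, squalene synthase, which commits farnesyl diphosphate to sterols, was counted in this list although it makes squalene. It was at 323.3, 330.6 and 312.1 CPM in siKMT2C and at 244.7, 231.4 and 237.2 CPM in siNC. Its libraries lay close together within each group and far apart between them. The ratio was 1.35, a log2 fold change of 0.44 (SE 0.10, 95% interval 0.20 to 0.68, edgeR adjusted p = 0.0899), and it stayed between 0.42 and 0.46 whichever library was left out. SQLE, the oxygenase that forms squalene epoxide, was at 253.6, 263.6 and 262.2 CPM against 235.1, 227.7 and 204.0 CPM. These groups did not overlap either, by a smaller margin (log2 fold change 0.23, SE 0.11, edgeR adjusted p = 0.366).

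SC5D (ENSG00000109929, chr11:121292453-121308694), the desaturase that introduces a ring double bond late in the pathway, had the largest fold change of the 19 sterol synthesis genes and one of the widest spreads. SC5D was at 83.3, 41.2 and 115.8 CPM in siKMT2C and at 46.6, 28.0 and 44.0 CPM in siNC. The second library was the lowest in each group, and the second siKMT2C library lay below 2 of the siNC libraries. The log2 fold change was 1.02 (SE 0.36, 95% interval 0.18 to 1.86, edgeR adjusted p = 0.207). It was 0.66 without siKMT2C replicate 3 and 1.33 without siKMT2C replicate 2.

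The other sterol-modifying enzymes differed little or with wide error. LSS, which cyclises squalene epoxide to lanosterol, gave a log2 fold change of -0.12 (95% interval -0.61 to 0.37). CYP51A1 and MSMO1, which remove methyl groups from lanosterol, gave 0.12 (-0.15 to 0.39) and 0.16 (-0.26 to 0.58), NSDHL 0.06 (-0.45 to 0.56) and HSD17B7 0.16 (-0.17 to 0.49). CYP51A1 also shares sequence with 3 pseudogenes at 14.35 and 12.8 CPM. The paired sterol reductases LBR and TM7SF2, which carry out the same step, were both on the negative side, at -0.24 (-0.66 to 0.18) and -0.38 (-0.94 to 0.19). EBP, the sterol isomerase, gave 0.03 (-0.57 to 0.63), and DHCR7, the last reductase on one branch, -0.02 (-0.39 to 0.36). For each of these 9 genes the groups overlapped and the difference was not called.

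Among the SREBP regulators, INSIG1 had the largest fold change of all 36 and the other 4 were slightly negative. INSIG1 (ENSG00000186480, chr7:155297776-155310235), which retains SCAP and is itself a classical SREBP target, was at 165.3, 181.8 and 86.3 CPM in siKMT2C and at 61.5, 96.1 and 54.6 CPM in siNC. The first 2 siKMT2C libraries were far above every control, but the third lay below siNC replicate 2. The log2 fold change was 1.03 (SE 0.31, 95% interval 0.30 to 1.76, edgeR adjusted p = 0.153). Its paralog INSIG2, a low-level gene, gave -0.16 with an interval of -1.18 to 0.86. SREBF2 was at 321.2, 306.4 and 349.3 CPM against 311.2, 343.9 and 425.0 CPM, with overlap between the groups and a log2 fold change of -0.14 (-0.48 to 0.19). SREBF1 gave -0.16 (-0.58 to 0.27) and SCAP -0.06 (-0.51 to 0.39). These are transcript levels, and cleavage of the SREBP proteins was not measured.

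The sterol transport genes did not move as one. NPC1, which exports cholesterol from lysosomes, was at 93.3, 95.5 and 90.7 CPM in siKMT2C and at 105.7, 106.3 and 106.7 CPM in siNC. It was the only one of the 36 with every siKMT2C library below every siNC library, by a narrow step (log2 fold change -0.19, 95% interval -0.45 to 0.07, edgeR adjusted p = 0.443). Its partner NPC2 gave 0.15 (-0.31 to 0.60), and STARD4, a soluble sterol carrier and SREBP target, 0.33 (-0.18 to 0.84, and 0.12 to 0.50 with 1 library left out). Both overlapped between groups.

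The 9 fatty acid synthesis genes lay, by median, closer to no change than the mevalonate genes. Of them 8 had a positive and 1 a negative fold change, with a median log2 value of 0.10 and a range of -0.01 to 0.24. At an unadjusted p under 0.05, 0 of 9 were higher, where 7.91% of all genes were, and 0 were lower, where 9.01% were. DESeq2 called 0 of the 9, against 5.74% of all genes. In a list of 9 genes such counts of 0 are near the background shares. The suppliers of acetyl-CoA were nearest to 0, with ACLY, which splits citrate, at -0.01 (-0.33 to 0.31) and ACSS2, which activates acetate, at 0.01 (-0.27 to 0.29). ACACA (ENSG00000278540, chr17:37084988-37406818), the rate-limiting carboxylase that makes malonyl-CoA, was at 184.5, 180.2 and 189.7 CPM in siKMT2C and 147.3, 156.6 and 181.3 CPM in siNC. The value of siNC replicate 3 lay inside the siKMT2C range and the other 2 below it (log2 fold change 0.19, SE 0.12, 95% interval -0.09 to 0.48, edgeR adjusted p = 0.487). FASN (ENSG00000169710, chr17:82078333-82098332), the synthase that builds palmitate, was at 662.8, 631.4 and 762.4 CPM in siKMT2C and 512.6, 539.6 and 784.8 CPM in siNC. The highest FASN value of all was a control, siNC replicate 3, and the other 2 controls were below every siKMT2C library (log2 fold change 0.16, SE 0.18, 95% interval -0.26 to 0.58, edgeR adjusted p = 0.709). Without siNC replicate 3 the FASN value was 0.37, and without siNC replicate 1 it was 0.05.

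Several fatty acid genes had higher values after a correction for the composition of their transcripts. With the correction for transcript GC content and length the log2 fold change of FASN was 0.39 (edgeR adjusted p = 0.0297), which passed the test under a setting that called 8.9% of all genes, so that 1 of 9 is near the background share. That of ACACA was 0.35 (edgeR adjusted p = 0.0614), and that of FADS2 0.38 (edgeR adjusted p = 0.066). All 9 fatty acid genes were then on the positive side, with a median of 0.13. FASN is the gene with the most GC-rich transcript of the 36, at 65.3% against a median of 50.1% over the 36. SCD, which puts the first double bond into saturated fatty acids, was at 2260, 2291 and 2237 CPM in siKMT2C and 2064, 2201 and 2159 CPM in siNC. The SCD groups did not overlap, but the step was small, with a log2 fold change of 0.08 (95% interval -0.15 to 0.31), whose upper bound is a ratio of 1.24. The elongase ELOVL6 gave 0.06 (-0.32 to 0.45) and the acyl-CoA synthetase ACSL3 0.10 (-0.22 to 0.41). The desaturases FADS1 and FADS2, which overlap on opposite strands, gave 0.11 (-0.21 to 0.44) and 0.24 (-0.17 to 0.66). FADS2 also overlaps FEN1, on the same strand. FEN1 was at 48.28 CPM in siKMT2C and 38.53 CPM in siNC (log2 fold change 0.32).

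Set side by side, sterol synthesis had the slightly higher median. Its 5 highest values were those of HMGCS1, FDPS and IDI1 in the mevalonate list and of SC5D and FDFT1 in the later list. The median log2 fold change was 0.16 over the 19 sterol synthesis genes, with 15 positive and 4 negative. It was 0.10 over the 9 fatty acid genes, with 8 positive and 1 negative. The medians differed by 0.065. No p-value is given for this difference, since the genes of a list share the same libraries. The difference was 0.022 after the correction for GC content and length, 0.022 when ACLY, ACSS2 and ACSL3 were left out of the fatty acid list, and 0.183 without siNC replicate 3. The tops of the 2 lists were further apart: 5 sterol genes had a log2 fold change of 0.44 or more, and the highest fatty acid gene, FADS2, was at 0.24. The sterol list is longer and its median SE was larger (0.19 against 0.14), and the part of both in this gap was not tested. The 12 genes of the list from squalene to cholesterol, FDFT1 among them, had a median of 0.09, near that of the fatty acid genes.

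By library, the mean of the log2(CPM + 0.5) values of the 19 sterol genes, each centred on its own mean over the 6 libraries, was 0.097, 0.036 and 0.233 in siKMT2C and -0.123, -0.228 and -0.015 in siNC. All siKMT2C libraries were above all siNC libraries, and the third was the highest of each group. Gene by gene, this separation held for 5 of the 19, against 11.8% of all genes. The reverse held for 0 of the 19, against 12.3% of all genes. Over all genes tested the means were -0.008, -0.017 and 0.01 in siKMT2C and -0.016, 0.002 and 0.029 in siNC, with overlap. For the 7 mevalonate genes the values were 0.174, 0.144 and 0.357 against -0.292, -0.32 and -0.063. The 12 later genes gave 0.052, -0.027 and 0.161 against -0.025, -0.175 and 0.013, with overlap. The 9 fatty acid genes gave 0.059, 0.018 and 0.09 against -0.123, -0.082 and 0.039, also with overlap, since siNC replicate 3 lay above siKMT2C replicate 2. Within a library, sterol minus fatty acid averaged 0.066 ± 0.067 (SD, n = 3) in siKMT2C and -0.067 ± 0.074 (SD, n = 3) in siNC. All 3 siKMT2C values (0.0382, 0.0182 and 0.143) were above the highest siNC value, which was next to 0, though by as little as 0.0182. These list means were not recomputed after the correction for GC content and length.

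**Figure D4:**
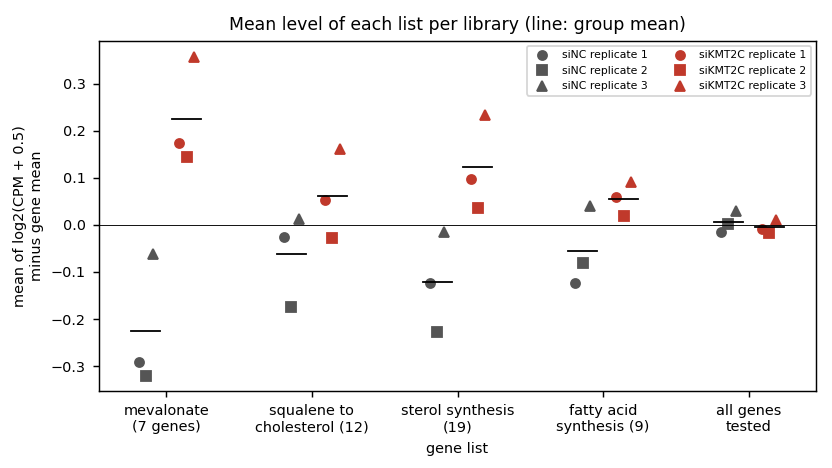
Mean centred log2(CPM + 0.5) of each list (vertical axis) in each library, with siNC in grey, siKMT2C in red and group means as lines. The mevalonate genes separate the groups most, at 0.144 to 0.357 against -0.32 to -0.063, and the fatty acid genes overlap.

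For many of the genes replicate 3 was at the same end of both groups, low for some genes and high for others. It was the lowest of its group in both siKMT2C and siNC for 9 of the 36 genes (25%, against 25.7% of all genes), namely HMGCS1, IDI1, LBR, MSMO1, HSD17B7, INSIG1, STARD4, ELOVL6 and ACSL3. It was the highest in both for 17 genes (47.2%, against 26.8% of all genes), among them MVK, PMVK, MVD, FDPS, LSS, ACLY and FASN. The transcripts of the 9 genes had 34.2% to 46.0% GC with a median of 40.2%, and those of the 17 had a median of 56.0%, with a range of 35.4% to 65.3%. Over all genes tested the corresponding medians were 41.4% and 57.2%. HMGCS1 (40.2% GC) and FDPS (56.0% GC) lie on opposite sides of this split. After the correction for GC content and length the log2 fold change of HMGCS1 was 0.82 (edgeR adjusted p = 0.0163), that of FDPS 0.75 (0.0045) and that of FDFT1 0.41 (0.0124).

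**Figure D5:**
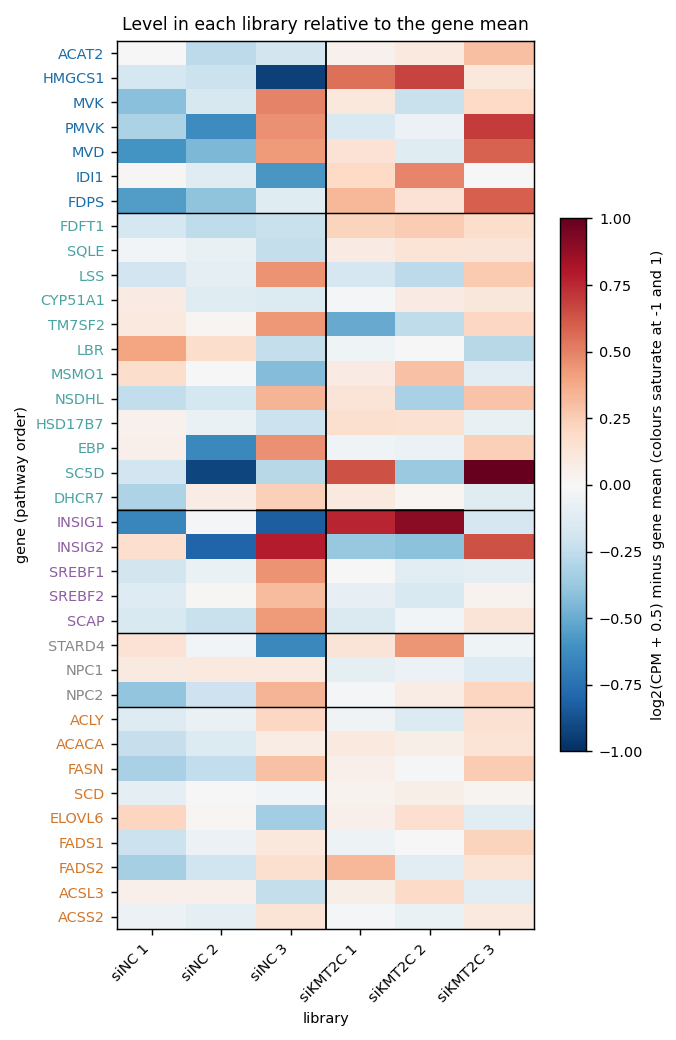
Level of each of the 36 genes in each library, as log2(CPM + 0.5) minus the gene's mean over the 6 libraries (colour, saturating at -1 and 1), in pathway order. HMGCS1 and FDPS are above their means in every siKMT2C library, INSIG1 only in the first 2, and siNC replicate 3 is the lowest library for HMGCS1 and the highest control for FDPS.

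The genes also differed widely in level. The deposited FPKM values imply a gene length that differs from the longest GENCODE 29 transcript by a factor of its own in each gene, from 1.0 times for SCD and PMVK to 6.34 times for FDFT1, so they were read beside CPM per kilobase of that longest transcript. SCD and MSMO1 were the 2 most abundant of the 36 on both scales, in different orders. SCD was at 417.3 FPKM in siKMT2C and 402.5 FPKM in siNC, and at 422 and 399 CPM per kilobase. MSMO1 was at 213.9 and 195.2 FPKM, and at 448 and 401 CPM per kilobase. HMGCS1 came next on both, at 116.0 and 64.82 FPKM and at 231 and 127 CPM per kilobase. The order of the genes below these depended on the scale: FDFT1 was 17th by FPKM and 6th by CPM per kilobase. SREBF2 (57.1 and 63.2 CPM per kilobase) was far above SREBF1 (10.4 and 11.6). The 3 lowest genes on both scales were MVK (6.67 and 6.61 CPM per kilobase), INSIG2 (4.28 and 4.77) and TM7SF2 (2.94 and 3.81). TM7SF2 was far below LBR (23.0 and 27.1), the other enzyme for its step. TM7SF2 overlaps VPS51 on the same strand, and VPS51 was at 49.66 CPM in siKMT2C and 51.61 CPM in siNC. How reads shared by TM7SF2 and VPS51 were counted is not known.

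Among 52 further genes around these pathways, of which 51 were tested, 2 rose and 2 fell in siKMT2C by the edgeR test, where 1.5% of all genes were called. Of 4 suppliers of NADPH, the reducing agent for both pathways, 1 was called: ME1, cytosolic malic enzyme, at 77.79, 88.52 and 74.51 CPM in siKMT2C and 38.22, 32.39 and 26.92 CPM in siNC. ME1 rose with a log2 fold change of 1.30 (SE 0.17, edgeR adjusted p = 0.0146). Of 11 genes of the isoprenoid branch, 1 was called: PDSS2, a subunit of the enzyme that makes the coenzyme Q side chain, rose from 20.77 ± 0.315 to 34.02 ± 2.21 CPM (SD, n = 3), a log2 fold change of 0.71 (SE 0.13, edgeR adjusted p = 0.045). RABGGTB, a subunit of the Rab prenyltransferase, was just outside (0.66, SE 0.13, edgeR adjusted p = 0.0508), and passed with another filter on low counts or without robust moderation.

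Of 19 tested genes of other fatty acid and glycerolipid synthesis, 0 rose and 2 fell, and 16 had a negative fold change, with a median of -0.24. ELOVL7, an elongase of long-chain fatty acids, fell from 41.59, 38.55 and 23.88 CPM in siNC to 10.76, 14.45 and 11.12 CPM in siKMT2C, a log2 fold change of -1.52 (SE 0.24, edgeR adjusted p = 0.0319). SCD5, a second stearoyl-CoA desaturase, fell from 31.87, 26.58 and 27.59 CPM to 15.72, 16.77 and 17.51 CPM, a log2 fold change of -0.78 (SE 0.14, edgeR adjusted p = 0.0456). For both genes the groups were far apart, unlike ELOVL6 and SCD among the 36. The calls of ELOVL7, SCD5 and PDSS2 were lost without any single library other than siNC replicate 3, and ME1 was called without siNC replicate 1 or siNC replicate 3 only. Of 10 genes of SREBP processing and sterol-dependent turnover and 7 of electron supply, 0 were called by edgeR. At an unadjusted p under 0.05, 2 were higher and 1 was lower, against 7.91% and 9.01% of all genes. These counts are near the background shares. DESeq2 called those 3, and it called 5.74% of all genes. The nearest were ERLIN2 (0.69, SE 0.14, edgeR adjusted p = 0.0549) and ERLIN1 (0.60, SE 0.13, 0.0732), membrane proteins that bind the SREBP complex, and POR (-0.71, SE 0.17, 0.0825), the reductase that gives electrons to CYP51A1 and SQLE.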

How the data were processed

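RNA-seq libraries of Ker-CT cells (3 siKMT2C, 3 siNC) were compared. The authors deposited whole-number read counts per gene and FPKM values in 1 table, per the file headers. Base calling and alignment tools were CASAVA 1.8 and TopHat2 2.0.6, per the submitters' processing notes, which name the mouse build mm10 although the identifiers are human Ensembl genes. The counting program, human build and strand setting are not given in the sources used here, and neither are the siRNA sequences or the transfection schedule. Counts rescaled by depth and 1 fixed length per gene matched the FPKM values to a relative deviation of 5.01e-05 in 13748 genes.

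Coordinates, transcript lengths and GC content came from GENCODE 29, and symbols from a separate list of gene names matched by Ensembl identifier. Counts were tested with edgeR 4.0.16 (R 4.3.3): filterByExpr, TMM scaling, a robust quasi-likelihood F test and Benjamini-Hochberg adjustment over all genes, called at an adjusted p under 0.05. CPM values use TMM-scaled library sizes. Intervals are 95% intervals of the fitted log2 fold change. Alternatives were DESeq2 1.42.0, limma-voom (limma 3.58.1), other scalings and filters, no robust moderation, a replicate block, a loess correction (span 0.3) for transcript GC content and length, and leaving out each library. Per-library list means used a pseudocount of 0.5 CPM. The edgeR script was checked on simulated counts. Figures used Python 3.11.15 with matplotlib 3.10.9.

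The 36 genes, the further gene lists and the markers were chosen with earlier results of these data known. All 36 are reported; of each further list the called genes are named, and otherwise at most 3 with the smallest p. Lists are described by counts and medians, without a test. Counts without strand cannot separate overlapping genes, and how reads shared by genes on the same strand were counted is not known. Pseudogenes may take reads of their parent genes.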

Additional observations from a re-analysis of the deposited data

How the results depend on the processing

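The number of genes called was 226 by the main test and 864 with DESeq2, 968 with the replicate block, 1341 with the GC and length correction, 1342 with that correction and the block, and 16 to 620 when 1 library was left out. The share of higher calls also moved, from 104 of 226 to 772 of 1342 with the correction and the block. Of the 36 genes, 4 were called with DESeq2, 5 with the replicate block (FDFT1, FDPS, HMGCS1, INSIG1 and SC5D), 4 with the correction, 10 with both (those of the block with ACACA, FASN, IDI1, MVD and STARD4) and 0 to 1 with 1 library left out, the 1 being FDPS without siNC replicate 3. The other settings called 0. The further pathway genes gave 4 calls by the main test, 8 with DESeq2, 8 with the block, 10 with the correction, 11 with both, and 0 to 6 with 1 library left out. The calls added by DESeq2 were ERLIN1, ERLIN2, POR and RABGGTB, and all 4 were also called with the block. RABGGTB was also called with a filter of CPM at least 1 in 3 libraries and without robust moderation (5 calls each), and with no filter ERLIN2 was called and PDSS2 was not (edgeR adjusted p = 0.054).

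KMT2C kept its direction in every setting, with -1.509 to -1.365 when 1 library was left out. It was -1.231 with the GC and length correction, alone and with the block. The sterol median was 0.148 to 0.27 with 1 library left out, the highest without siNC replicate 3, and 0.132 to 0.27 over all settings. Sterol minus fatty acid was 0.143 without siKMT2C replicate 2, 0.153 without siNC replicate 1 and 0.183 without siNC replicate 3. The replicate numbers were not taken as pairs in the main test. Deviations of same-numbered libraries correlated at 0.019, 0.107 and 0.389 across genes. siKMT2C replicate 1 correlated best with siNC replicate 2 (0.032), and siKMT2C replicate 2 with siNC replicate 1 (0.318).

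Of 576 refits of single genes, 43 turned the sign, in 14 genes whose main log2 fold changes lay between -0.16 and 0.31, and 22 genes kept their sign throughout. With library size alone MVK was -0.016, EBP -0.001 and ACSS2 -0.015. With the correction, alone and with the block, LSS was 0.018 and 0.013, DHCR7 0.075 and 0.069, SREBF1 0.016 and 0.01, SCAP 0.105 and 0.103 and ACLY 0.059 and 0.058. With 1 library left out the 14 genes ranged over -0.095 to 0.087 for ACLY, -0.003 to 0.17 for ACSL3, -0.034 to 0.079 for ACSS2, -0.155 to 0.101 for DHCR7, -0.218 to 0.301 for EBP, -0.084 to 0.198 for ELOVL6, -0.613 to 0.273 for INSIG2, -0.296 to 0.097 for LSS, -0.003 to 0.299 for MSMO1, -0.171 to 0.324 for MVK, -0.079 to 0.26 for NSDHL, -0.018 to 0.699 for PMVK, -0.176 to 0.17 for SCAP and -0.281 to 0.053 for SREBF1. Of the genes that kept their sign, those that moved by over 1.5 times from the main value with 1 library left out were MVD (0.148 to 0.752), IDI1 (0.286 to 0.576), CYP51A1 (0.07 to 0.192), TM7SF2 (-0.615 to -0.214), LBR (-0.402 to -0.084), HSD17B7 (0.086 to 0.234), SC5D (0.655 to 1.334), SREBF2 (-0.24 to -0.016), STARD4 (0.121 to 0.495), NPC2 (0.0 to 0.386), FASN (0.05 to 0.374), FADS1 (0.025 to 0.193) and FADS2 (0.13 to 0.391). Settings that kept every library moved further genes as much. ACACA reached 0.349, SCD 0.13 and NPC1 -0.119, from main values of 0.192, 0.08 and -0.19. The cause of these shifts was not tested.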
